A study of Mus musculus with 2 samples.

Results

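Neuregulin 1 (Nrg1) and the ErbB receptor genes Erbb2, Erbb3 and Erbb4 were followed cell population by cell population in mouse embryos of embryonic day 9.5. The 4 genes were found by their symbols among the 27998 genes of the files, and each symbol named a single gene. Nrg1 encodes a growth factor that carries an EGF-like domain and is shed from, or displayed on, the cell that makes it. ErbB3 and ErbB4 bind neuregulin, whereas ErbB2 binds no known ligand and serves as the preferred partner of the other receptors. In the embryonic heart, neuregulin from the endocardium, the inner lining, acts on ErbB2 and ErbB4 of the neighbouring heart muscle, where it is needed for the muscular ridges called trabeculae. ErbB3 is best known there for the mesenchyme of the endocardial cushions, and elsewhere for the neural crest.

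All embryos carried Mesp1Cre, which is active in early mesoderm, and Rosa26-GFPflox/+, a reporter that marks the cells in which Cre has acted, on a Swiss Webster background. The control group (Ctrl) had these alleles alone, and the other group also had Tbx1flox/flox (cKO), so that Cre should inactivate Tbx1 in the Mesp1 lineage. Live GFP-positive cells of the pharyngeal apparatus and heart were sorted from pooled embryos and profiled by droplet sequencing of transcript 3′ ends. Each group was 1 library from 2 embryos, so no test between the genotypes was possible, and every difference below describes these libraries and not the conditions. The study lists slightly more somites for the cKO embryos, so stage and genotype cannot be told apart.

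The libraries labelled Ctrl and cKO held 7418 and 10281 cells with 132017331 and 162874391 unique molecular identifiers (UMIs). After filtering, 6591 and 8969 cells were kept, with median depths of 16856 and 14184 UMIs. They formed 23 clusters, of which 20 were named from marker genes, with the ending -like, and 3 stayed unnamed. Of the 18 populations this gave, 16 had at least 30 cells in each library and were compared. The members of this receptor system and the genes of its pathway took no part in the clustering. Tbx1 UMIs do not check the labels, since 3′ ends cannot separate intact from recombined transcripts. In multilineage primed progenitor-like (MLP-like) cells Tbx1 was higher in the library labelled cKO, at 109 against 56.2 on the counts-per-million (CPM) scale, taken over all UMIs of a population in a library. Directions are therefore given for the libraries as labelled. Erythroid-like cells were found only in the library labelled cKO, 158 of them. The summed level of 7 erythroid markers was also higher there in other populations, for example 155 against 0.812 CPM in atrial or inflow cardiomyocyte-like cells. The part of erythroid RNA in the results was not tested.

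In the GRCm38.p6 RefSeq table, which matched 4 of 4 symbols, Nrg1 (ENSMUSG00000062991) lies on chromosome 8, from 31807452 to 32891609. Erbb2 (ENSMUSG00000062312) lies on chromosome 11 from 98412484 to 98437716. Erbb3 (ENSMUSG00000018166) lies on chromosome 10 from 128567523 to 128589635. Erbb4 (ENSMUSG00000062209) lies on chromosome 1 from 68031884 to 69108576. The stretch of Nrg1 that makes the protein a ligand is the EGF-like domain, shown because the receptors bind it. It is given as bases 706 to 831 of the coding sequence of transcript Nrg1-201 in Gencode vM1 (NCBIM37 assembly), coding strand, with its 6 cysteine codons in capitals. All 3 listed coding transcripts matched the domain's cysteine pattern, and 2 of the 3 carried exactly these bases. Counts of 3′ ends do not tell Nrg1 isoforms apart, so every Nrg1 value below is a sum over them.
Nrg1 EGF-like domain: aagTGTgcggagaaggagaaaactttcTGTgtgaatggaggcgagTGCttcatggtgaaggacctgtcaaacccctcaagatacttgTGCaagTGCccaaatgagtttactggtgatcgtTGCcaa

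The receptors are related through their kinase domain. The 54 bases around its catalytic loop are shown from the same annotation to let them be set side by side, with the codon of the aspartate in capitals. They are bases 2515 to 2568 of the Erbb2 coding sequence, 2473 to 2526 of Erbb3 and 2506 to 2559 of Erbb4.
Erbb2 catalytic loop: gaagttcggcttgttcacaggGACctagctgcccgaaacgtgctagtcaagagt
Erbb3 catalytic loop: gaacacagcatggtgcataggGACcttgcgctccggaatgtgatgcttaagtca
Erbb4 catalytic loop: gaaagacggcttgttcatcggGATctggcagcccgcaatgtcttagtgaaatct
Erbb2 and Erbb4 shared 38 of the 54 bases, and Erbb3 shared 32 with each of them. ErbB3 is the member with little kinase activity of its own.

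Nrg1 was highest in endocardium-like cells and in progenitors of the pharyngeal mesoderm. The endocardium-like cells, 143 and 155 in the libraries labelled Ctrl and cKO, carried 68.6 CPM (95% interval 58.8 to 79.6) and 52.9 CPM (43.4 to 63.8). Intervals here and below are exact, at 95%, and cover counting error only. MLP-like cells carried 62.6 CPM (57.6 to 67.8) in the library labelled Ctrl and 8.76 CPM (7.28 to 10.4) in the library labelled cKO. In branchiomeric muscle progenitor-like (BrM-like) cells the level was 55.9 CPM (51.4 to 60.7) and 6.32 CPM (4.85 to 8.08). Thus 3 populations stood close together in the library labelled Ctrl, where the intervals of neighbours in this order overlapped, while the endocardium-like cells stood alone at the top in the library labelled cKO. Within the library labelled Ctrl the endocardium-like level was 1.1 times the MLP-like level (0.921 to 1.30), and within the library labelled cKO it was 6.04 times that level (4.62 to 7.88).

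**Figure D1:**
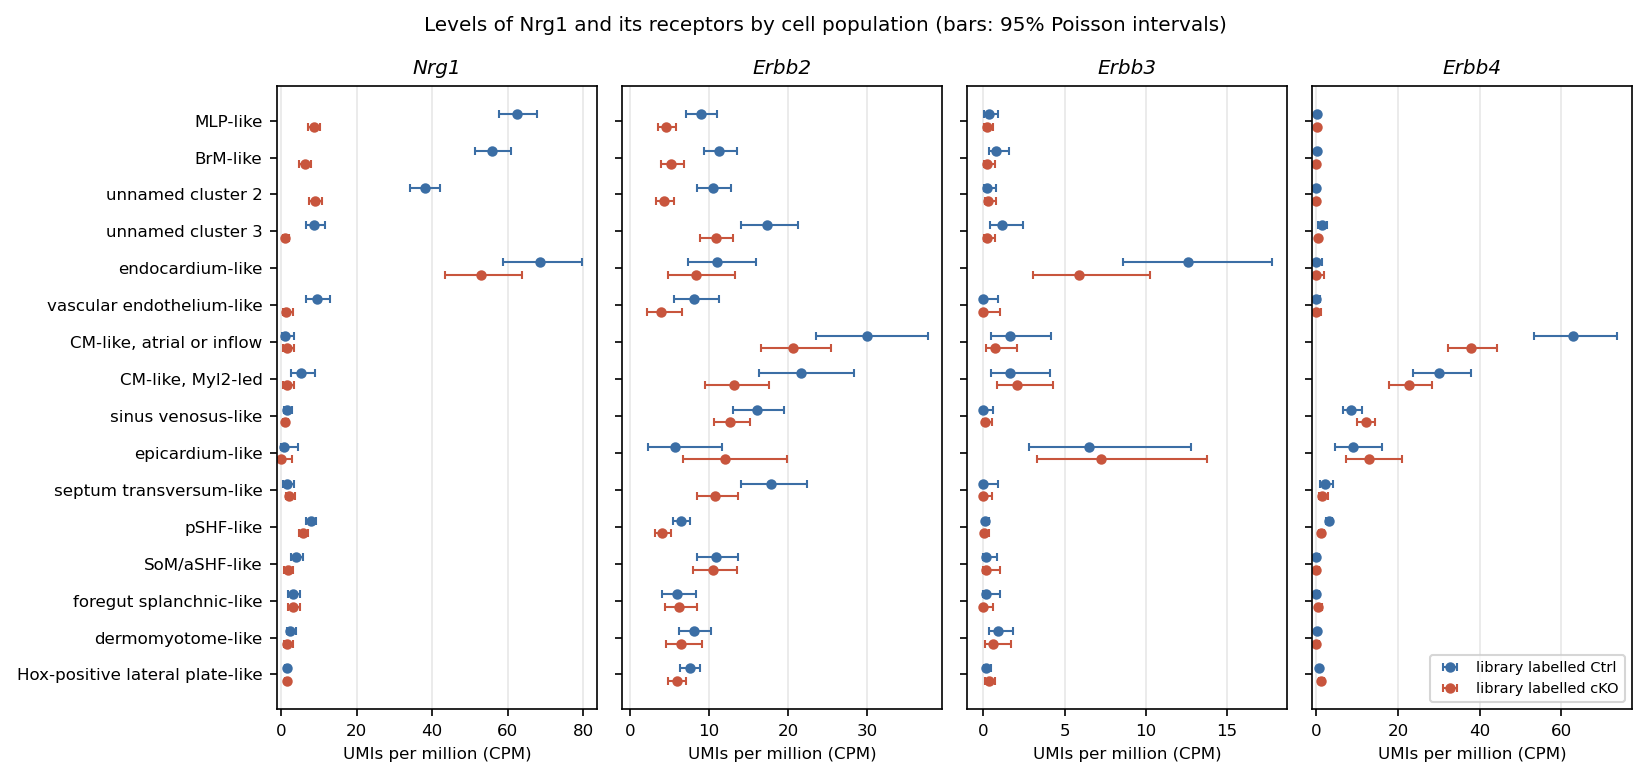
Levels of Nrg1, Erbb2, Erbb3 and Erbb4 on the counts-per-million scale (CPM, horizontal axis, a separate scale for each gene) in 16 cell populations (vertical axis), with 1 point per library (blue, labelled Ctrl; red, labelled cKO) and bars for exact 95% Poisson intervals. Nrg1 was highest in endocardium-like, MLP-like and BrM-like cells of the library labelled Ctrl and stayed high only in endocardium-like cells of the library labelled cKO, Erbb4 and Erbb2 were highest in the cardiomyocyte-like (CM-like) populations, and Erbb3 in endocardium-like and epicardium-like cells.

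The difference between the libraries was large in the pharyngeal progenitors and small in the endocardium-like cells. The log2 ratio of the library labelled cKO over the library labelled Ctrl was −2.84 (−3.13 to −2.56) in MLP-like cells, 7.14-fold lower, from 594 and 124 UMIs. With presumed doublets kept it was −1.99 and without integration of the libraries −3.60, both still called lower by the rule given next, and at a coarser clustering no MLP-like population was named. These alternatives rebuilt the population. With doublets kept, clusters of 705, 337 and 282 cells labelled Ctrl were named MLP-like, against 710 cells in all here. The log2 ratio was −3.15 (−3.55 to −2.77) in BrM-like cells, 8.86-fold lower, from 568 and 63 UMIs. It was −0.38 (−0.74 to −0.02) in endocardium-like cells, from 174 and 108 UMIs. A gene was called lower when it was at least 2-fold lower with an interval away from 0, among genes with at least 10 CPM in a library and 30 UMIs over both. By that rule Nrg1 was lower in MLP-like and BrM-like cells and not in endocardium-like cells. The same rule called 3.7% of expressed genes lower in MLP-like cells, 4.25% in BrM-like cells and 2.92% in endocardium-like cells. The endocardium-like ratio exceeded the MLP-like ratio by 2.46 on the log2 scale (2.02 to 2.91) and the BrM-like ratio by 2.77 (2.26 to 3.28), whereas the MLP-like and BrM-like ratios differed by 0.31 (−0.16 to 0.78). These intervals of differences between ratios are approximate. Nrg1 was among the genes the study itself drew attention to with such libraries, so its lower level is not independent evidence.

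Each cluster behind these populations showed the same direction. MLP-like cells came from a pair of clusters, in which Nrg1 went from 73.8 to 7.53 CPM and from 48.7 to 9.62 CPM. The BrM-like clusters went from 58.5 to 7.69 CPM and from 50.7 to 4.02 CPM. A cluster led by Irx1, Six2 and Irx2, which stayed unnamed because markers of more than 1 list led it, behaved likewise, from 38.0 CPM (34.1 to 42.2) to 9.07 CPM (7.53 to 10.8). Its log2 ratio was −2.07 (−2.38 to −1.77), also called lower, against 3.16% of its expressed genes. Another unnamed cluster, led by Lum, Cbr3 and Foxd1, held 8.88 CPM (6.52 to 11.8) and 1.17 CPM (0.606 to 2.05), below the level needed for a call. The direction also held within cells of each sex, which cannot be told apart from single embryos with 2 embryos in a library: the MLP-like log2 ratio was −3.0 among cells with Xist UMIs alone and −2.66 among those with Y-linked ones alone, and the BrM-like ratio −3.63 and −2.48.

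The endothelial populations differed from each other. Vascular endothelium-like cells, 227 and 234 of them, carried Nrg1 at 9.52 CPM (6.77 to 13) in the library labelled Ctrl and 1.40 CPM (0.455 to 3.27) in the library labelled cKO. The endocardium-like level was therefore 7.20 times (5.07 to 10.5) the vascular one in the library labelled Ctrl and 37.8 times (15.7 to 119) in the library labelled cKO. The vascular log2 ratio of −2.77 (−4.47 to −1.42) rested on 39 and 5 UMIs and did not reach the level needed for a call. The endocardium-like ratio exceeded it by 2.39 (1.0 to 3.78). The label of the endocardium-like cells rests on 5 of 5 endocardium markers and 7 of 7 endothelium markers. They also raised 5 of 6 vascular endothelium markers, and the vascular endothelium-like cells raised 4 of those 6 and 3 of 5 endocardium markers. Nfatc1, a transcription factor gene of the endocardium, stood at 120.2 and 97.4 CPM in them, against 15.6 and 12.6 CPM in vascular endothelium-like cells. The 5 endocardium markers summed to 2337 and 1766 CPM in endocardium-like cells, and the part of this lower sum in the Nrg1 value was not tested.

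Posterior second heart field-like (pSHF-like) cells carried a low level of Nrg1, at 7.86 CPM (6.69 to 9.18) and 5.83 CPM (4.76 to 7.07). Their log2 ratio of −0.43 (−0.80 to −0.07) exceeded that of MLP-like cells by 2.40 (1.95 to 2.86). In the other populations compared Nrg1 was at or below 5.23 CPM in both libraries. Foregut splanchnic mesenchyme-like cells (3.24 and 3.28 CPM) and Hox-positive lateral plate-like cells (1.54 and 1.49 CPM) showed near equal levels. Of 16 populations compared, 15 had Nrg1 UMIs in both libraries, with 12 ratios below 0 and 3 above 0. Over all expressed genes the median log2 ratio of a population lay between −0.13 and −0.06.

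**Figure D2:**
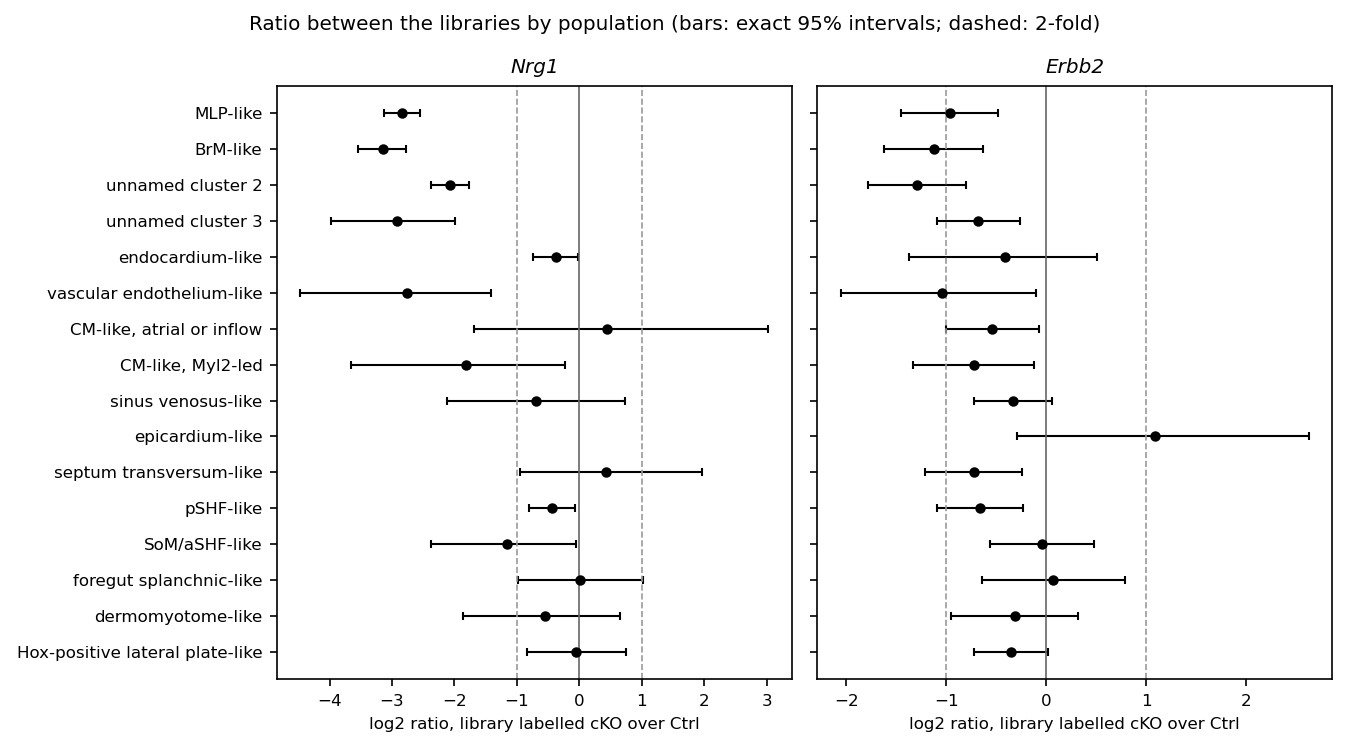
Log2 ratio of the level in the library labelled cKO over the library labelled Ctrl (horizontal axis) for Nrg1 and Erbb2 in each population with UMIs in both libraries (vertical axis), with exact 95% intervals as bars and dashed lines at 2-fold. Nrg1 ratios fell between −3.15 and −2.07 in MLP-like, BrM-like and the Irx1-led unnamed cluster and stood at −0.38 in endocardium-like cells, and Erbb2 ratios were below 0 in 14 of 16 populations.

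The share of cells with a Nrg1 UMI showed the same order. After thinning each cell to 5000 UMIs, 28.4% (21.1 to 36.6) of endocardium-like cells labelled Ctrl and 16.5% (10.9 to 23.3) of those labelled cKO had one. Among MLP-like cells the shares were 24.0% (20.9 to 27.3) and 4.19% (3.06 to 5.59), and among BrM-like cells 18.6% (15.3 to 22.1) and 3.01% (1.85 to 4.61). Without thinning they were 52.5% and 36.1% of endocardium-like, 41.4% and 10.2% of MLP-like, and 36.9% and 7.81% of BrM-like cells. Atrial or inflow CM-like cells, which held Nrg1 at 1.22 and 1.66 CPM and are not known as its source, gave a thinned share of 0.719% (0.0182 to 3.94), from 1 of 139 cells, in the library labelled Ctrl. In the library labelled cKO 0 of 276 such cells had a Nrg1 UMI, which allows a share of up to 1.09%, with 3 counts as the limit of a count of 0 for all such shares. These thinned cells had originally held a median of 16801 and 13087 UMIs for endocardium-like cells, 13165 and 12797 for MLP-like cells, and 16676 and 14507 for atrial or inflow CM-like cells. The lower MLP-like share in the library labelled cKO thus stood above the background of its library, as did the endocardium-like shares of both libraries.

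Nrg1 and Tbx1, the targeted transcription factor gene, were set against each other cell by cell in the MLP-like population. In the library labelled Ctrl, 31.0% (23.9 to 38.9) of thinned cells with a Tbx1 UMI and 22.0% (18.5 to 25.7) of those without one also had a Nrg1 UMI. In the library labelled cKO these shares were 4.13% (2.42 to 6.52) and 4.23% (2.81 to 6.10). The intervals of MLP-like cells with and without Tbx1 overlapped in each library. In BrM-like cells the shares were 20.2% and 17.3% in the library labelled Ctrl and 4.46% and 2.38% in the library labelled cKO. Without thinning, BrM-like cells labelled Ctrl gave 40.5% (35.8 to 45.3) and 22.6% (15.1 to 31.8), whose intervals did not overlap. Unthinned shares do not hold depth equal between cells. After thinning to 10000 UMIs these BrM-like shares were 26.95% and 26.59%. In the Irx1-led unnamed cluster labelled Ctrl the unthinned shares were 37.1% (31.6 to 42.9) and 21.1% (14.9 to 28.4). Labelled cKO they were 12.5% and 12.99%. After thinning to 10000 UMIs the shares of this cluster were near equal labelled Ctrl, at 23.5% and 22.78%. Labelled cKO they were then 3.55% (1.91 to 6.0) and 9.24% (6.27 to 12.99), the lower share being that of cells with Tbx1. After thinning to 5000 UMIs the intervals of this cluster overlapped in each library. The lower share of Nrg1 cells was therefore seen both in cells with and in cells without a Tbx1 UMI.

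Erbb4, the neuregulin receptor with a kinase of its own, was concentrated in heart muscle. Atrial or inflow CM-like cells, 140 and 277 in number, carried 63.0 CPM (53.4 to 73.7) in the library labelled Ctrl and 38.0 CPM (32.3 to 44.3) in the library labelled cKO. CM-like cells led by Myl2, a ventricular myosin light chain gene, carried 30.2 CPM (23.7 to 37.8) and 22.7 CPM (17.9 to 28.4). The first level was 2.09 times (1.57 to 2.79) and 1.68 times (1.27 to 2.23) the second in the libraries labelled Ctrl and cKO. Both populations had 8 of 8 cardiomyocyte markers. The Myl2-led cells raised all the ventricular and all the outflow tract markers and so could not be assigned to either.

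Neither CM-like population met the call rule for Erbb4, although atrial or inflow CM-like cells did with every deposited barcode (−1.09) or presumed doublets kept (−1.04). The log2 ratio was −0.73 (−1.06 to −0.40) in atrial or inflow CM-like cells, from 155 and 160 UMIs, and −0.41 (−0.89 to 0.07) in Myl2-led CM-like cells, from 75 and 76 UMIs. The rule called 2.38% and 3.0% of expressed genes lower in these populations. The 8 cardiomyocyte markers summed to 44270 and 53860 CPM in atrial or inflow CM-like cells in the libraries labelled Ctrl and cKO, and their part in the Erbb4 value was not tested.

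Outside heart muscle, sinus venosus-like and epicardium-like cells carried Erbb4 at a lower level. Sinus venosus-like cells, mesenchyme of the inflow region, stood at 8.59 CPM (6.44 to 11.2) and 12.1 CPM (10.1 to 14.5), a log2 ratio of 0.50 (0.02 to 0.99). Epicardium-like cells, the outer covering of the heart, stood at 8.93 CPM (4.46 to 16.0) and 12.9 CPM (7.37 to 20.9), from 11 and 16 UMIs. The levels of these 2 populations did not differ beyond counting error, with folds of 0.962 (0.497 to 2.04) and 0.940 (0.556 to 1.70) in the libraries labelled Ctrl and cKO. In pSHF-like cells Erbb4 stood at 3.0 CPM (2.29 to 3.85) and 1.19 CPM (0.736 to 1.82). Most of it came from a single pSHF-like cluster, led by Dock9, Igfbp7 and Arl4a, at 8.19 and 3.07 CPM.

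Erbb4 was not detected in several populations. No UMI was found in either library in endocardium-like, vascular endothelium-like, SoM/aSHF-like (somatic mesoderm with anterior second heart field) cells or the Irx1-led unnamed cluster. For endocardium-like cells the exact upper limits were 1.45 and 1.81 CPM. MLP-like cells held 1 UMI in each library. Over all kept cells Erbb4 stood at 3.30 and 3.18 CPM.

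The Erbb4 difference in sinus venosus-like cells went opposite ways in cells of the 2 sexes, and sex and embryo cannot be told apart in these libraries. In cells with Xist UMIs alone, Erbb4 stood at 16.2 CPM (10.9 to 23.1) in 110 cells labelled Ctrl and 10.6 CPM (8.39 to 13.2) in 554 cells labelled cKO, a log2 ratio of −0.61 (−1.23 to 0.05). Where only Y-linked UMIs were present it stood at 6.16 CPM (3.81 to 9.42) in 217 cells and 20.9 CPM (14.1 to 29.8) in 109 cells, a log2 ratio of 1.76 (0.91 to 2.64). The 8 cardiomyocyte markers moved with it, summing to 3179 and 2710 CPM in the first kind of cells and to 1453 and 4231 CPM in the second. Over all sinus venosus-like cells they summed to 1901 and 2957 CPM, with 0 of 8 markers absent in either library, and their part in the Erbb4 value was not tested. The libraries also differed in how many sinus venosus-like cells came from each sex. In Myl2-led CM-like cells the ratios by sex were −0.62 and 0.21, and in atrial or inflow CM-like cells −0.94 and −0.50. Epicardium-like cells turned likewise, with Erbb4 at 19.8 and 5.92 CPM in Xist cells (10 and 3 UMIs) and 1.56 and 15.2 CPM in Y-linked cells (1 and 9 UMIs).

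**Figure D3:**
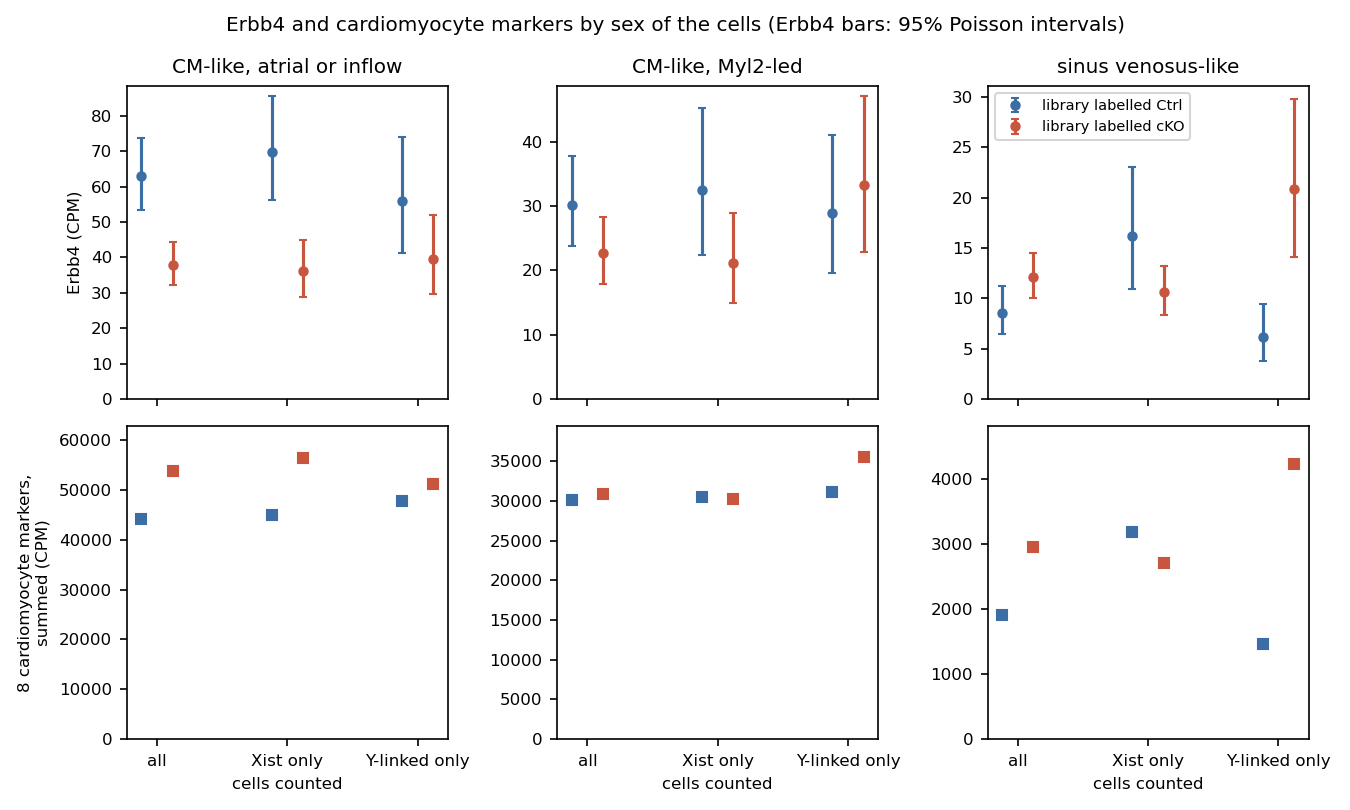
Erbb4 level (top row, CPM, with exact 95% Poisson intervals) and summed level of 8 cardiomyocyte markers (bottom row, CPM) in 3 populations (columns), for all kept cells, cells with Xist UMIs and no Y-linked UMI, and cells with Y-linked UMIs and no Xist UMI (horizontal axis), in the libraries labelled Ctrl (blue) and cKO (red). In sinus venosus-like cells Erbb4 and the markers were higher in the library labelled cKO among Y-linked cells, at 20.9 against 6.16 CPM for Erbb4, and lower among Xist cells, at 10.6 against 16.2 CPM.

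Erbb2, the shared partner receptor, was broadly expressed and again highest in heart muscle. Atrial or inflow CM-like cells carried 30.1 CPM (23.6 to 37.7) and 20.7 CPM (16.5 to 25.5), and Myl2-led CM-like cells 21.7 CPM (16.3 to 28.3) and 13.1 CPM (9.54 to 17.6). The fold between them was 1.38 (0.962 to 2.0) in the library labelled Ctrl, within counting error, and 1.57 (1.08 to 2.32) in the library labelled cKO. Septum transversum-like cells, next in order in the library labelled Ctrl, carried 17.9 and 10.8 CPM and did not differ from Myl2-led CM-like cells beyond counting error. Sinus venosus-like cells took that place in the library labelled cKO, at 12.7 CPM, and the intervals of neighbours in the order overlapped there too. The atrial or inflow CM-like level was 3.36 times (2.43 to 4.64) and 4.50 times (3.23 to 6.30) that of MLP-like cells, which carried 8.95 CPM (7.15 to 11.1) and 4.59 CPM (3.54 to 5.85). Among the populations compared, the lowest Erbb2 level in the library labelled Ctrl was 5.68 CPM (2.29 to 11.7), in epicardium-like cells. Thus Erbb2 spanned a narrower range between populations than the other members, each of which had populations at or below the floor of 3 UMIs in both libraries.

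Erbb2 ratios leaned below 0 in most populations. They were below 0 in 14 of 16 populations and above 0 in 2, and their median was −0.60. Of 9 populations that passed the level filter, 2 were called lower, in which 4.25% and 3.16% of expressed genes were, and neither call held throughout. In BrM-like cells the levels were 11.3 CPM (9.35 to 13.6) and 5.21 CPM (3.89 to 6.84), with a log2 ratio of −1.12 (−1.62 to −0.63), which was −0.88 and no call with presumed doublets kept. In the Irx1-led unnamed cluster they were 10.5 and 4.31 CPM, with a log2 ratio of −1.29 (−1.78 to −0.80). That ratio was −0.55 (−1.32 to 0.22), not called, in cells with Xist UMIs alone and −2.40 (−3.38 to −1.52), called lower, among those with Y-linked ones. Both were populations in which Nrg1 was called lower too. The MLP-like ratio was −0.96 (−1.45 to −0.48), with levels below 10 CPM. In atrial or inflow CM-like cells the ratio was −0.54 (−1.01 to −0.07), and its difference from the MLP-like ratio, 0.42 (−0.22 to 1.07), was within counting error. SoM/aSHF-like cells, at 10.8 and 10.5 CPM, and foregut splanchnic mesenchyme-like cells, at 5.94 and 6.23 CPM, showed near equal levels. Epicardium-like cells had a ratio of 1.09 (−0.29 to 2.62) from 7 and 15 UMIs.

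Erbb3, which binds neuregulin and signals through its partners, was the scarcest member, with 82 and 54 UMIs over all kept cells. Its highest level in the library labelled Ctrl was in endocardium-like cells, at 12.6 CPM (8.63 to 17.8) there, against 5.87 CPM (3.03 to 10.3) in the library labelled cKO. The log2 ratio of −1.1 (−2.20 to −0.11), from 32 and 12 UMIs, met the call rule. That call rests on few UMIs. The ratio was −0.96 with presumed doublets kept, −2.08 (−4.56 to −0.16) in Xist cells, from 11 and 3 UMIs, and −0.36 (−1.69 to 0.86) in Y-linked cells, and none of these met the rule. Epicardium-like cells carried 6.50 CPM (2.80 to 12.8) and 7.25 CPM (3.32 to 13.8), from 8 and 9 UMIs. The fold of endocardium-like over epicardium-like cells was 1.94 (0.876 to 4.88) and 0.810 (0.313 to 2.18), within counting error in both libraries. Vascular endothelium-like cells held 0 UMIs in both libraries, with exact upper limits of 0.901 and 1.03 CPM.

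Since Erbb3 also marks the neural crest, genes of neural crest transcription factors were read in the same cells. Sox10, Foxd3 and Tfap2b were at 0 UMIs in endocardium-like cells of both libraries. In epicardium-like cells Foxd3 and Tfap2b were at 0 in both libraries and Sox10 stood at 1.62 and 3.22 CPM, from 2 and 4 UMIs. The part of neural crest RNA in the Erbb3 values was not tested.

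Nrg1 and Erbb4 UMIs lay largely in different populations, whereas Erbb2 and Erbb3 UMIs were also found where Nrg1 was. MLP-like, BrM-like and Irx1-led unnamed cells together held 73.4% (71.4 to 75.3) of all Nrg1 UMIs of the library labelled Ctrl and 48.1% (44.1 to 52.0) of those of the library labelled cKO, beside 24.6% and 27.5% of all UMIs. The same cells held 0.516% and 0.230% of Erbb4 UMIs, 24.6% and 17.9% of Erbb2 UMIs, and 15.9% (8.72 to 25.6) and 16.7% (7.92 to 29.3) of Erbb3 UMIs. Their Erbb3 UMIs were few. MLP-like cells held 3 and 3, BrM-like cells 8 and 2, and Irx1-led unnamed cells 2 and 4. Both CM-like populations together held 59.3% (54.2 to 64.2) and 54.4% (49.6 to 59.1) of Erbb4 UMIs, beside 4.21% and 5.54% of all UMIs, and 0.777% and 1.87% of Nrg1 UMIs. They held 10.6% and 13.4% of Erbb2 UMIs, so their excess of Erbb2 was smaller than that of Erbb4.

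The endocardium-like cells held a larger part of the Nrg1 UMIs in the library labelled cKO. Their part was 8.45% (7.28 to 9.73) in the library labelled Ctrl and 16.8% (14.0 to 19.9) in the library labelled cKO, although their part of all UMIs was 2.16% and 1.5%. The pSHF-like part was 7.77% and 16.0%. These parts went with the lower Nrg1 total, 2060 UMIs (17.5 CPM) against 643 UMIs (4.71 CPM) over all kept cells. Of Erbb3 UMIs the endocardium-like cells held 39.0% (28.4 to 50.4) and 22.2% (12 to 35.6). Of Erbb4 UMIs the sinus venosus-like cells held 13.7% and 27.9%, beside 5.25% and 7.31% of all UMIs.

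**Figure D4:**
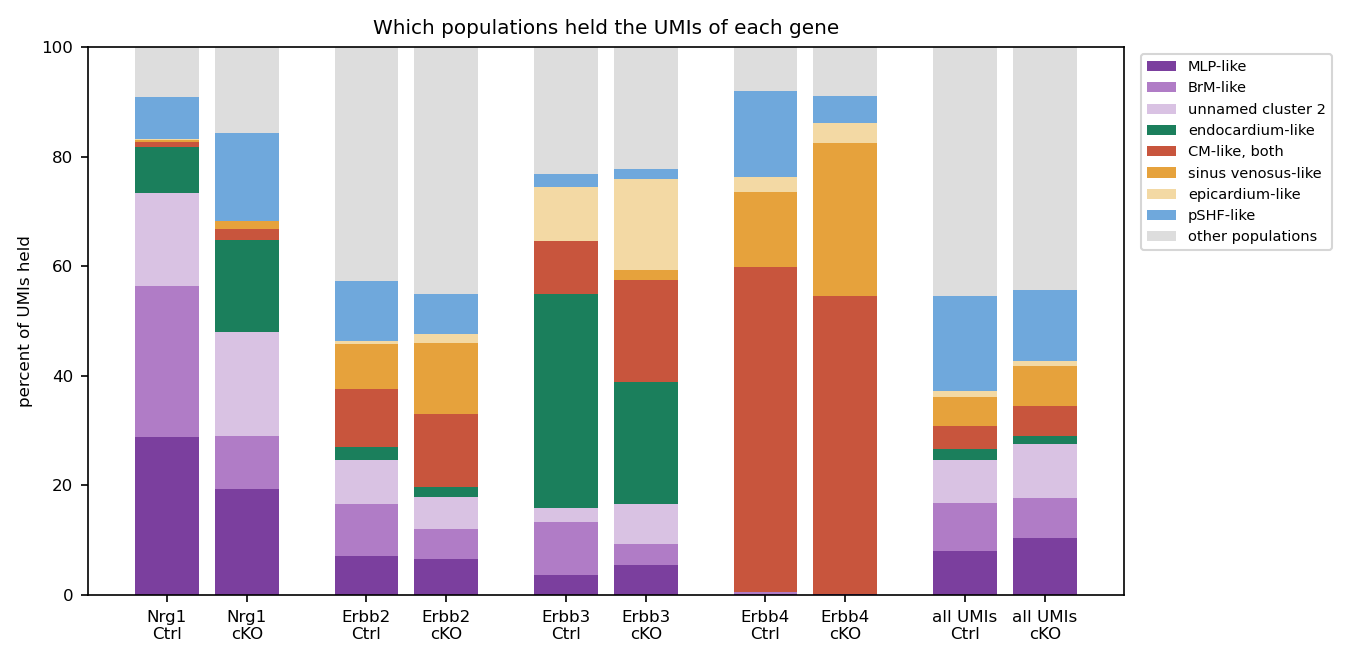
Percent of the UMIs of Nrg1, Erbb2, Erbb3, Erbb4 and of all genes (vertical axis) held by each population (colors) in the libraries labelled Ctrl and cKO (paired bars). MLP-like, BrM-like and Irx1-led unnamed cells (unnamed cluster 2) held 73.4% and 48.1% of Nrg1 UMIs, and both CM-like populations 59.3% and 54.4% of Erbb4 UMIs, while both CM-like populations held 10.6% and 13.4% of Erbb2 UMIs.

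Sorting the cells by their UMIs, without the populations, gave a like picture. Of 445 cells of the library labelled Ctrl with a Nrg1 UMI after thinning, 2 also had a UMI of Erbb3 or Erbb4, a share of 0.449% (0.0545 to 1.61), against 1.93% (1.60 to 2.30) of the other cells. In the library labelled cKO it was 1 of 181 cells, a share of 0.553% (0.0140 to 3.04), against 1.51% (1.26 to 1.79). An Erbb2 UMI was found in 4.27% (2.59 to 6.59) of Nrg1 cells and 5.30% (4.75 to 5.89) of other cells labelled Ctrl, and in 2.76% (0.903 to 6.33) and 3.84% (3.45 to 4.27) of those labelled cKO. The share with Erbb3 or Erbb4 was thus lower among Nrg1 cells than among other cells labelled Ctrl, with intervals that overlapped, and the shares with Erbb2 overlapped in both libraries. Without thinning, 11 cells labelled Ctrl held both Nrg1 and Erbb4, 0.167% of cells, where the product of the separate shares is 0.555%.

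Receptor pairs within a cell were counted in the CM-like populations, as ErbB2 and ErbB4 form a common neuregulin receptor. Without thinning, 25 of 140 atrial or inflow CM-like cells labelled Ctrl held UMIs of both genes, 17.9% (11.9 to 25.2), and the product of the separate shares is 19.8%. In the library labelled cKO 28 of 277 did, 10.1% (6.82 to 14.3), beside a product of 8.82%. In Myl2-led CM-like cells the shares were 15.3% (9.58 to 22.6) and 6.99% (3.77 to 11.7), beside products of 9.06% and 5.99%. All of these products lay within the intervals except that of the Myl2-led cells labelled Ctrl, which lay below it. After thinning, single genes were found in 21.6% (15.1 to 29.4) and 14.9% (10.9 to 19.6) of atrial or inflow CM-like cells for Erbb4 and in 19.4% (13.2 to 27.0) and 12.3% (8.68 to 16.8) for Erbb2. The unthinned shares of these genes were 51.4% and 36.5%, and 38.6% and 24.2%. In endocardium-like cells, which should lack Erbb4, 0 of 141 and 0 of 152 thinned cells held it, which allows shares of up to 2.13% and 1.97%.

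Nrg1 and Erbb3 were both found in endocardium-like cells, and few cells held both. Without thinning, 3 of 143 cells labelled Ctrl held both, 2.10% (0.435 to 6.01), beside a product of the separate shares of 5.87%, which the interval includes. In the library labelled cKO 3 of 155 did, 1.94% (0.401 to 5.55), beside a product of 1.87%. Erbb3 alone was found in 11.2% (6.53 to 17.5) and 5.16% (2.25 to 9.92) of these cells without thinning, and in 4.97% (2.02 to 9.96) and 2.63% (0.722 to 6.60) with thinning.

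The other ligands of the EGF family were scarce, with Hbegf as the exception. Hbegf, a heparin-binding ligand of Egfr and ErbB4, was highest in vascular endothelium-like cells of the library labelled Ctrl, at 23.7 CPM (19.2 to 28.9), and in Myl2-led CM-like cells of the library labelled cKO, at 30.1 CPM (24.5 to 36.6). Tgfa, a ligand of Egfr, reached 3.16 CPM in MLP-like cells labelled Ctrl and 1.47 CPM in endocardium-like cells labelled cKO. Nrg2, a further neuregulin, reached 1.77 CPM in pSHF-like cells labelled Ctrl and 3.22 CPM, from 4 UMIs, in epicardium-like cells labelled cKO. Egf reached 1.33 CPM in Hox-positive lateral plate-like cells labelled Ctrl and 1.66 CPM in atrial or inflow CM-like cells labelled cKO. The remaining 6 ligand genes, Nrg3, Nrg4, Areg, Ereg, Btc and Epgn, did not exceed 1.79 CPM in any population. Their highest populations held 8 UMIs or fewer. Egfr, the remaining receptor of the family, was highest in epicardium-like cells of both libraries, at 9.74 CPM (5.04 to 17) and 11.3 CPM (6.17 to 18.9).

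In endocardium-like cells, where Nrg1 was highest, pathway genes showed few differences between the libraries. Of 4 expressed proteases that shed such ligands, 8 adaptors and kinase subunits, 6 inhibitors and 4 genes induced by ERK signalling, none was called higher or lower. Medians of their log2 ratios were −0.50, −0.40, −0.23 and −0.34, beside −0.08 over all 7923 expressed genes, of which 81 were called higher and 231 lower. Of 2 expressed trabecular genes, Gja5, a gap junction gene, was called lower, with 10.3 CPM (6.70 to 15.0) and 2.45 CPM (0.794 to 5.71) from 26 and 5 UMIs. Hbegf was the only other ligand expressed at this level, with a log2 ratio of 0.40.

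Genes induced by ERK signalling were called lower in populations with and without a Nrg1 call. The genes of this paragraph are named after their values were seen. Of 7 expressed ERK-induced genes, 2 were called lower in MLP-like cells and 3 in BrM-like cells, and none higher, where 285 of 7693 (3.7%) and 325 of 7656 (4.25%) expressed genes were called lower. Spry2, an inhibitor of receptor tyrosine kinase signalling, stood at 147.8 and 56.9 CPM in MLP-like cells and at 87.4 and 37.1 CPM in BrM-like cells. Its relative Spry4 stood at 10.7 and 1.55 CPM and at 11.4 and 5.31 CPM in the same populations. Etv5, an ERK-induced transcription factor gene, stood at 23.7 and 11 CPM in BrM-like cells. Of 6 expressed inhibitors, Errfi1, which blocks ErbB kinases, was called lower in MLP-like cells, at 17.4 and 8.26 CPM, and none was called in BrM-like cells. Medians of the ERK-induced list were −0.64 and −0.79, beside −0.10 and −0.12 over all expressed genes. In the Irx1-led unnamed cluster, where Nrg1 was also called lower, none of the 6 expressed genes of that list was called. Among populations with no Nrg1 call, Spry4 and Etv5 were lower in vascular endothelium-like cells, 2 of 7 expressed with a list median of −0.91, and Spry1 in the Lum-led unnamed cluster, 1 of 4 expressed. There 3.18% and 2.28% of expressed genes were called lower. Nrg1 was nevertheless low in both populations labelled cKO, with log2 ratios of −2.77 and −2.92. It had no call because its levels labelled Ctrl, 9.52 and 8.88 CPM, were below the 10 CPM needed.

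In atrial or inflow CM-like cells, where Erbb4 and Erbb2 were highest, 5 pathway genes were called lower and none higher. Of 5 expressed genes of trabecular heart muscle, 2 were lower. Nppb, a natriuretic peptide gene, stood at 318.0 CPM (296.1 to 341.1) and 74.3 CPM (66.3 to 83.0), with a log2 ratio of −2.10 (−2.29 to −1.91). Bmp10, a growth factor gene of trabeculae, stood at 17.1 CPM (12.3 to 23.1) and 6.41 CPM (4.22 to 9.33), with a log2 ratio of −1.41. Of 4 expressed shedding proteases, Adam19 went from 34.1 to 15.2 CPM and Bace1 from 17.9 to 7.83 CPM, with log2 ratios of −1.17 and −1.19. Of 4 expressed ERK-induced genes, Fos stood at 12.2 and 5.22 CPM, with a log2 ratio of −1.22. None of 7 adaptors and kinase subunits or 5 inhibitors was called. Medians over these lists, in the order proteases, adaptors, inhibitors, trabecular genes and ERK-induced genes, were −0.93, −0.34, −0.66, −0.58 and −0.55, beside −0.08 over 7704 expressed genes, of which 69 were called higher and 183 lower. Myl2-led CM-like cells, next in Erbb4 and Erbb2, showed other genes. None of 4 expressed trabecular genes and none of 4 proteases was called there, with medians of −0.47 and −0.55, while Sos1, an adaptor gene, Errfi1 and Spry2 were called lower. Their levels were 30.6 and 15.2, 16.5 and 5.97, and 94.1 and 45.3 CPM, and 237 of 7912 expressed genes were called lower. These 3 genes were named after their values were seen.

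Genes most like each member were ranked by the correlation of levels over 21 clusters, averaged over the libraries, among 9341 genes. The clusters share their library and depth, so these are descriptions. For Nrg1 the genes were Sh3d19, Sall3, Gab2, Elavl4 and Elmo1, with mean r from 0.79 to 0.74. For Erbb4 they were Pgam2, Atp2a2, Myl4, Tnnt2 and Fam49a, with mean r from 0.96 to 0.95, of which Atp2a2, Myl4 and Tnnt2 encode proteins of the contracting heart muscle cell. For Erbb2 they were Ndufb11, Tmco3, Gbas, Etfb and Ndufaf3, with mean r from 0.85 to 0.81, among them mitochondrial genes. For Erbb3 they were Gcnt1, Mical2, Adgrg6, Cd200 and Rfk, with mean r from 0.83 to 0.79. Among the members, Erbb2 and Erbb4 were the most alike, with a mean r of 0.71, and Nrg1 and Erbb4 the least, with a mean r of −0.42.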

How the data were processed

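The deposited values were raw counts of UMIs per gene and cell barcode in 2 libraries, which the authors made with Cell Ranger 3.1.0 and the mm10 genome, per the submitters' processing notes. Members, pathway lists and markers were chosen with earlier results of these data known. Cells with at least 1000 genes and at most 10% mitochondrial UMIs were kept. Doublets scored with Scrublet (scanpy 1.11.5) were removed at 0.8% per 1000 barcodes, since its own threshold called none in the library labelled Ctrl. Xist and Y-linked UMIs occurred together in 37.0% and 34.0% of removed cells and 1.35% and 1.26% of kept ones. The libraries shared 15 barcodes. Clustering used Seurat 5.3.0 in R 4.3.3 (2000 variable genes, 30 dimensions, resolution 1, integrated libraries) without the members, the pathway lists and genes that differed between the libraries. A name needed at least 3 markers, more than 50% of its list, a marker among the cluster's 10 leading genes, and no other list with more markers among them; these thresholds were set after clusters had been seen, and rebuilt names may differ from the study's. UMIs were summed per population and library and divided by the total, 1231580 to 20352548 UMIs, so that 3 counts came to 0.147 to 2.44 CPM. Poisson, conditional and Clopper-Pearson intervals cover counting error only. Pathway genes were named if at least 2-fold apart in the population where Nrg1 or a receptor was highest. The call rule was tested on simulated counts. A test that treats cells as replicates was not used. Alternatives are given at the end. The summed level of the neural crest marker list is not reported here.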

Additional observations from a re-analysis of the deposited data

Results flagged for a closer look

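Erbb4 in sinus venosus-like cells went the other way from Erbb4 in the CM-like populations. Its log2 ratio (library labelled cKO over library labelled Ctrl) was 0.50 in sinus venosus-like cells and −0.73 in atrial or inflow CM-like cells, a difference of 1.23 (0.66 to 1.79). Against Myl2-led CM-like cells, at −0.41, the same ratio of 0.50 differed by 0.91 (0.25 to 1.56). Within sinus venosus-like cells the ratio was 1.76 in cells with Y-linked UMIs alone and −0.61 in cells with Xist UMIs alone, a difference of 2.37 (1.36 to 3.38). The intervals are approximate and cover counting error only. With 1 library per group none of these differences was tested over embryos, and with 2 embryos in a library sex and embryo cannot be told apart.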

How the results depend on the processing

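No paired analysis was possible because each group had 1 library. Of the log2 ratios reported, 14 of the members in named populations were recomputed under up to 10 alternatives to the cell filter, doublets, clustering, scaling and sex of the cells. Other ratios, those of unnamed clusters and pathway genes among them, were not, apart from the values by sex given above. Of the 130 values obtained, 118 stayed within the interval of the reported value, 12 lay outside it, and 10 carried another call. Those outside it include, for Nrg1 in MLP-like cells, −2.32 with every deposited barcode, −1.99 with presumed doublets kept and −3.60 without integration. For Nrg1 in BrM-like cells they were −3.63 in Xist cells and −2.48 in Y-linked cells. Each of these 5 remained called lower. Populations were rebuilt at each change of clustering, so cells named MLP-like were not the same throughout. For Erbb4 in atrial or inflow CM-like cells the ratio was −1.09 with every barcode and −1.04 with doublets kept, and both became calls. Nrg1 in endocardium-like cells ranged from −0.54 to −0.23, with no call under 9 alternatives. The Erbb3 call in endocardium-like cells was lost with doublets kept (−0.96), in Xist cells (−2.08) and in Y-linked cells (−0.36), and the Erbb2 call in BrM-like cells with doublets kept (−0.88). Calls were gained for Erbb2 in MLP-like Y-linked cells (−1.28), Nrg1 in vascular endothelium-like cells without integration (−2.83) and in Xist cells (−2.93), and Erbb4 in sinus venosus-like Y-linked cells (1.76). The cause of these changes was not tested. No value could be had where a population was not named: endocardium-like with every barcode, vascular endothelium-like with doublets kept, epicardium-like without integration, MLP-like and epicardium-like at resolution 0.6, and Myl2-led CM-like in the first clustering pass. Totals without mitochondrial, ribosomal protein and haemoglobin genes raised levels, for Nrg1 in endocardium-like cells to 91.1 and 71.2 CPM, and changed no call of a ratio named here. Genes called lower numbered 285 in MLP-like, 325 in BrM-like, 246 in Irx1-led unnamed, 231 in endocardium-like, 183 in atrial or inflow CM-like, 237 in Myl2-led CM-like, 244 in vascular endothelium-like and 180 in Lum-led unnamed cells. Without the level filter they numbered 990, 895, 885, 356, 346, 449, 529 and 530, and at 1.5-fold 1026, 1098, 1079, 843, 838, 885, 1067 and 904. Erbb3 had the fewest UMIs of the members, with 12 UMIs or fewer in each population other than endocardium-like cells labelled Ctrl.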
